A study of Caenorhabditis elegans with 4 samples.

Results

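The sperm genes described here are the 51 of the 15286 genes in the count table whose names start with *spe-*, *fer-*, *msp-*, *ssp-*, *ssq-*, *sss-* or *nspd-*. They comprise 17 *spe-* genes, 1 *fer-* gene, 17 *msp-* genes, 4 *ssp-*, 4 *ssq-*, 2 *sss-* and 6 *nspd-* genes, and they were taken by name alone. Polyadenylated RNA was sequenced from dissected adult *C. elegans* gonads of H3.3K27M mutant worms and of wild-type worms grown at 25 °C, with 2 libraries per strain. The mutant strain is FAS58, genotype *his-72(uge40[K27M]) III*, in which the lysine-to-methionine change was edited into the endogenous H3.3 gene *his-72*. The wild type is N2, and no other allele or treatment is given for either strain. The titles of the mutant libraries carry another strain number, FAS43, and the extraction text of the labels describes embryos and larvae, so the grouping follows the strain and genotype fields.

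A *C. elegans* hermaphrodite makes sperm late in larval life and then switches permanently to oocytes. Most sperm genes are transcribed in spermatocytes, before the meiotic divisions, and mature sperm stored in the spermatheca no longer transcribe. Major sperm protein (MSP, encoded by the *msp-* genes) forms the fibres on which the crawling sperm moves and, once released, signals oocytes to mature. The *spe-* and *fer-* genes were named for sterile mutants with defective sperm. An adult gonad arm therefore holds oocytes, meiotic germ cells and sheath, and how much spermatheca and stored sperm it carries depends on age and on the dissection. Neither is given in the sources used here. In these bulk samples, fewer sperm or spermatocytes and less sperm RNA per cell cannot be told apart.

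Total counts ran from 28298609 to 32957429 per library. Levels are given as CPM, counts scaled to the TMM-adjusted library total. The detection floor was set at 3 counts per library, equal to 0.0919 to 0.105 CPM, and it covers counting error only. Changes are log2 fold changes of H3.3K27M over wild type from edgeR's quasi-likelihood test, fitted over all 15261 genes with a count, and calls needed both a fold change over 2 and a Benjamini-Hochberg adjusted p under 0.05. An exact permutation of 2 libraries against 2 cannot give a two-sided p under 0.333, and the adjusted p-values draw on variance estimates pooled over genes. Replicates of 1 strain differed by more than sampling, since chi-square over its degrees of freedom was 90.1 in the mutant and 100.2 in wild type. The labelled tissue was checked with marker genes. The 12 oocyte markers summed to between 33397 and 33916 CPM in the mutant and between 36868 and 44090 CPM in wild type, and the 8 pan-germline markers to between 4065 and 4883 CPM in the mutant and between 4498 and 5254 CPM in wild type.

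Most of these transcripts were close to the detection floor in gonads of either strain. For the near-identical *msp-* copies, reads that match several genes may be missing from the counts and from their sums, since their handling is not given in the sources used here. The 51 genes together took 13390 and 14357 counts in the H3.3K27M libraries and 12564 and 8800 counts in the wild-type libraries. Between 85.5 and 92.6% of these counts in the mutant, and between 89.7 and 93.9% in wild type, came from just 6 genes, *spe-5*, *spe-39*, *spe-41*, *spe-44*, *spe-6* and *spe-15*. The 33 genes of the *msp-*, *ssp-*, *ssq-*, *sss-* and *nspd-* families took 266 and 162 counts in the mutant and 991 and 282 counts in wild type. Of these 33 genes, 28 never exceeded 38 counts, and 16 had 0 counts in at least 1 library. Of the 51 genes, 26 passed edgeR's filter on low counts, 15 of them among the 18 *spe-* and *fer-* genes.

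Of the 51 genes, 1 was called higher in the H3.3K27M gonads, *fer-1*, and 0 were called lower. Over all genes tested, 4.43% were called higher and 1.46% lower by the same test, against 1.96% and 0% of the sperm genes. At an unadjusted p under 0.05 there were 5 higher and 7 lower sperm genes, which is 9.80% and 13.7% of them, against 12.3% and 12.4% of all genes. DESeq2, run on the same counts, called 4 higher and 1 lower, with 7.86% and 3.27% of all genes. In 7 of the 51 genes both mutant libraries lay above both wild-type libraries, or 13.7%, against 24.1% of all genes. In 19 genes both mutant libraries lay below both wild-type libraries, or 37.3%, against 32.7% of all genes. For the 18 *spe-* and *fer-* genes the median log2 fold change was 0.32, with 12 above 0, whereas the 33 family genes had one of -2.12, with 29 below 0, or -1.53 when genes without any mutant count are set to their bound against the floor. The median over all genes was -0.11. This contrast was not tested, and the family values rest on very few reads.

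**Figure D1:**
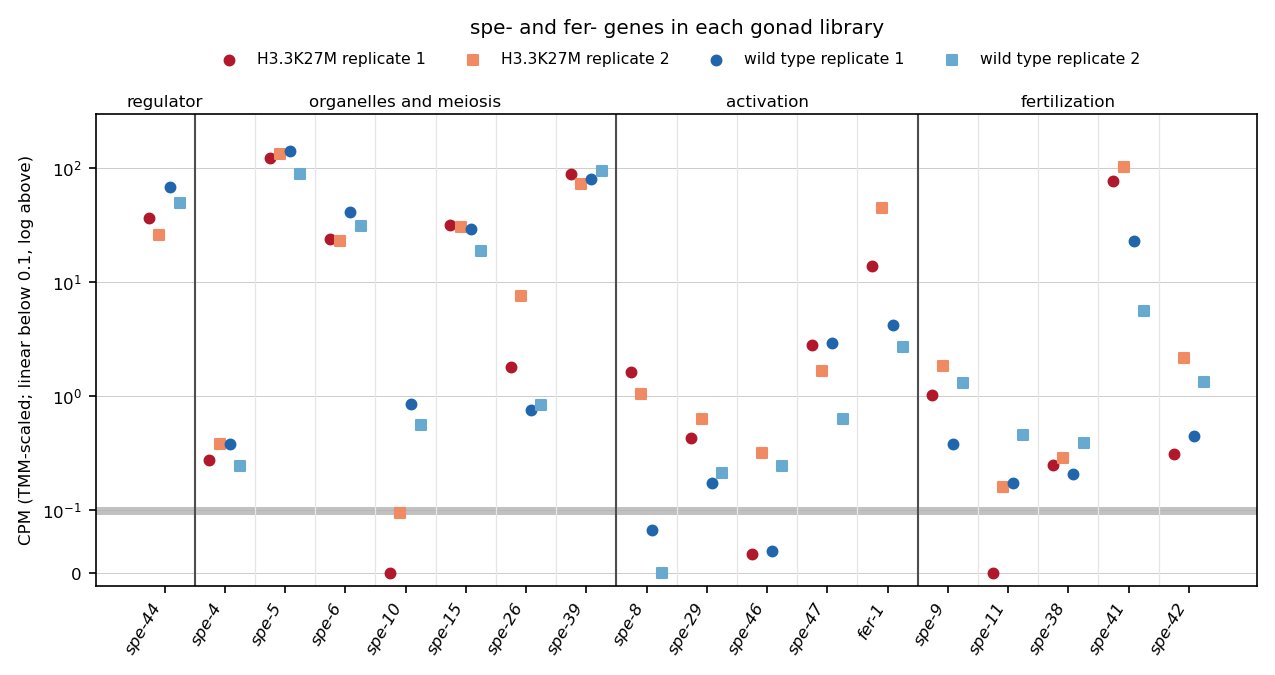
Level of each *spe-* and *fer-* gene in the 4 gonad libraries, in CPM on an axis that is linear below 0.1 and logarithmic above, with genes grouped by role and the detection floors shown as a grey band. The mutant libraries (red and orange) lie above the wild-type libraries (blues) for *fer-1*, *spe-41*, *spe-26*, *spe-8*, *spe-29* and *spe-15*, and below them for *spe-44*, *spe-6*, *spe-10* and *spe-11*.

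The 5 *spe-* and *fer-* genes placed by hand under the activation of spermatids into crawling sperm all lay above 0. Their median log2 fold change was 1.46 and 1 was called, against 43.96% of all genes above 0 and 4.43% called higher. *snf-10*, a gene of sperm activation outside the name rule, was at -0.70. In the same list of other sperm genes, described below, *try-5*, *swm-1* and *zipt-7.1* were at 5.08, 1.15 and -0.20. *try-5* had 35 and 86 counts in the mutant and 3 and 0 counts in wild type, which was at the floor. The edgeR fit called none of these genes from that list. For *spe-47* and *spe-46* the direction turned when 1 library was left out. *fer-1* encodes a ferlin needed for the fusion of membranous organelles with the sperm surface, and it is also used in muscle. It lies on the minus strand of chromosome I (8623012 to 8631202, WBcel235). It had 448 and 1411 counts in the H3.3K27M libraries and 123 and 77 counts in the wild-type libraries, or 29.1 ± 21.7 CPM in the mutant and 3.44 ± 1.07 CPM in wild type (SD, n = 2 each). The lower of the mutant libraries was thus still well above the higher wild-type library, while the mutant libraries differed widely from each other. The mean level was 8.45-fold higher in the mutant, and the fitted log2 fold change was 3.07 with a standard error (SE) of 0.63 and a Benjamini-Hochberg adjusted p = 0.0444 in edgeR's quasi-likelihood test. With RLE in place of TMM scaling the adjusted p was 0.0545 and the gene was not called. Leaving out each library gave log2 fold changes between 1.99 and 3.74, none of them called. The 5 body wall muscle markers summed to 234.8 and 322.1 CPM in the mutant libraries and 433.7 and 235.9 CPM in the wild-type libraries. The strains overlapped in this sum. Of the single markers, *myo-3* was higher in both mutant libraries (log2 fold change 0.66), *unc-54* was lower in both (-0.83) and 3 overlapped. The part of these markers in the *fer-1* value was not tested. The 2 annotated genes that overlap *fer-1* are noncoding and on the opposite strand.

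*spe-8* encodes a non-receptor tyrosine kinase of the signal that activates hermaphrodite sperm (chromosome I, 118093 to 120901). It had 53 and 33 counts in the mutant libraries and 2 and 0 counts in the wild-type libraries. The wild-type libraries were thus at the floor, and the ratio of mutant to wild type was 38.7, with a 95% interval of 10.4 to 324.8 that covers counting error only and not the spread between replicates. The adjusted p of 0.0736 from the same test did not pass. *spe-29*, a small membrane protein gene of the same signal, had 14 and 20 counts in the mutant and 5 and 6 counts in wild type, with a log2 fold change of 1.46 (SE 0.85) that did not pass (adjusted p = 0.330). *spe-29* is overlapped on the opposite strand by *gon-1*, and the use of strand in the authors' counting is not given in the sources used here. *spe-47* and *spe-46*, which hold back premature activation, had 91 and 53 and 1 and 10 counts in the mutant libraries, against 85 and 18 and 1 and 7 counts in the wild-type libraries. In both, the strains overlapped and the replicates differed more than the strains, with log2 fold changes of 0.33 and 0.30.

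The genes that act at fertilization were divided. *spe-41*, a TRPC-type calcium channel gene also known as *trp-3*, maps to chromosome III (3439011 to 3444210, minus strand). It had 2521 and 3255 counts in the H3.3K27M libraries and 672 and 161 counts in the wild-type libraries. It was at 89.8 ± 17.9 CPM in the mutant and 14.3 ± 12.3 CPM in wild type (SD, n = 2 each). The strains did not overlap, and the mean was 6.29-fold higher in the mutant. The log2 fold change was 2.65 (SE 0.57), and the adjusted p of 0.0512 missed the threshold narrowly. It passed with edgeR's legacy quasi-likelihood fit (0.0420), with a filter on low counts (0.0483) and with DESeq2 (9e-06), while with RLE scaling or any library left out it did not pass. Its log2 fold change without 1 library lay between 1.97 and 4.04. Per kilobase of exon, *spe-41* was at 32.9 CPM in the mutant, above 78.5% of all genes, and at 5.23 CPM in wild type, above 60.9% of all genes.

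The other fertilization genes were far lower and did not separate the strains to the same degree. *spe-9*, an EGF-repeat protein gene of the sperm surface, had 33 and 58 counts in the mutant and 11 and 37 counts in wild type. *spe-42*, a multipass membrane protein gene, had 10 and 68 counts in the mutant and 13 and 38 counts in wild type. *spe-38*, which encodes a four-pass membrane protein, had 8 and 9 counts in the mutant and 6 and 11 counts in wild type, and shares its strand with the overlapping gene *impt-1*. These 3 genes overlapped between the strains, with log2 fold changes of 0.77, 0.46 and -0.15 and standard errors of 0.77, 1.01 and 0.87. *spe-11*, whose product the sperm delivers to the egg, had 0 and 5 counts in the mutant and 5 and 13 counts in wild type. In CPM the mutant libraries were below the wild-type libraries, by a narrow margin. Its log2 fold change of -1.94 (SE 1.40, adjusted p = 0.409) did not pass.

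The genes for sperm organelles and meiosis held the most abundant transcripts. Of these 7 genes, 0 were called, against 4.43% of all genes called higher and 1.46% lower. *spe-5* encodes a subunit of the vacuolar proton pump and *spe-39* a vesicle trafficking factor, and both types of machinery work in many cells. *spe-5* had 3999 and 4193 counts in the mutant and 4163 and 2564 counts in wild type, with a log2 fold change of 0.14 (SE 0.25, adjusted p = 0.757). *spe-39* had 2884 and 2305 counts in the mutant and 2370 and 2714 counts in wild type, with a log2 fold change of -0.13 (SE 0.19, adjusted p = 0.709). The strains overlapped in both genes. Per kilobase of exon, *spe-5* lay above 91.2% of all genes in the mutant and 89.7% in wild type, and *spe-39* above 82.3% in the mutant and 83.3% in wild type. *spe-5* is overlapped on the opposite strand by *ift-20*. *spe-15*, a myosin VI gene that helps to sort material into the residual body, had 1038 and 968 counts in the mutant and 862 and 533 counts in wild type, a log2 fold change of 0.37 (SE 0.26, adjusted p = 0.405).

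*spe-6*, a casein kinase 1-like gene needed for spermatocyte meiosis, maps to chromosome III (11505488 to 11508930). It had 779 and 727 counts in the H3.3K27M libraries and 1213 and 882 counts in the wild-type libraries. Both mutant libraries were lower, at 23.4 ± 0.682 CPM in the mutant and 36.1 ± 7.54 CPM in wild type (SD, n = 2 each), but the log2 fold change of -0.63 (SE 0.22, adjusted p = 0.156) did not pass. *spe-26*, which encodes a kelch-repeat protein, had 58 and 237 counts in the mutant and 22 and 24 counts in wild type. The fitted log2 fold change was 2.53 (SE 0.87, adjusted p = 0.153), the wild-type libraries lay close together, and mutant replicate 2 was far above replicate 1. The value was 1.158 without mutant replicate 2 and 3.28 without mutant replicate 1. It is overlapped on the opposite strand by R10H10.3. *spe-10*, a palmitoyltransferase gene, had 0 and 3 counts in the mutant and 25 and 16 counts in wild type. The mutant was at the floor, and by counts alone *spe-10* was 15.2-fold lower in the mutant, with a 95% interval for counting error only of 4.84 to 76.6 (adjusted p = 0.135 from the fit). *spe-4*, a presenilin gene of the same organelles, had 9 and 12 counts in the mutant and 11 and 7 counts in wild type and the strains overlapped.

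*spe-44* encodes a transcription factor that switches on much of the sperm gene programme, and it was well expressed. Its position is chromosome IV, 12452063 to 12454215, minus strand. There were 1178 and 828 counts in the H3.3K27M libraries and 1984 and 1410 counts in the wild-type libraries. The level was 31.1 ± 7.07 CPM in the mutant and 58.4 ± 13.1 CPM in wild type (SD, n = 2 each), and the strains did not overlap. The log2 fold change of -0.91 (SE 0.25, adjusted p = 0.103) did not pass, and it lay between -1.12 and -0.63 with 1 library left out.

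**Figure D2:**
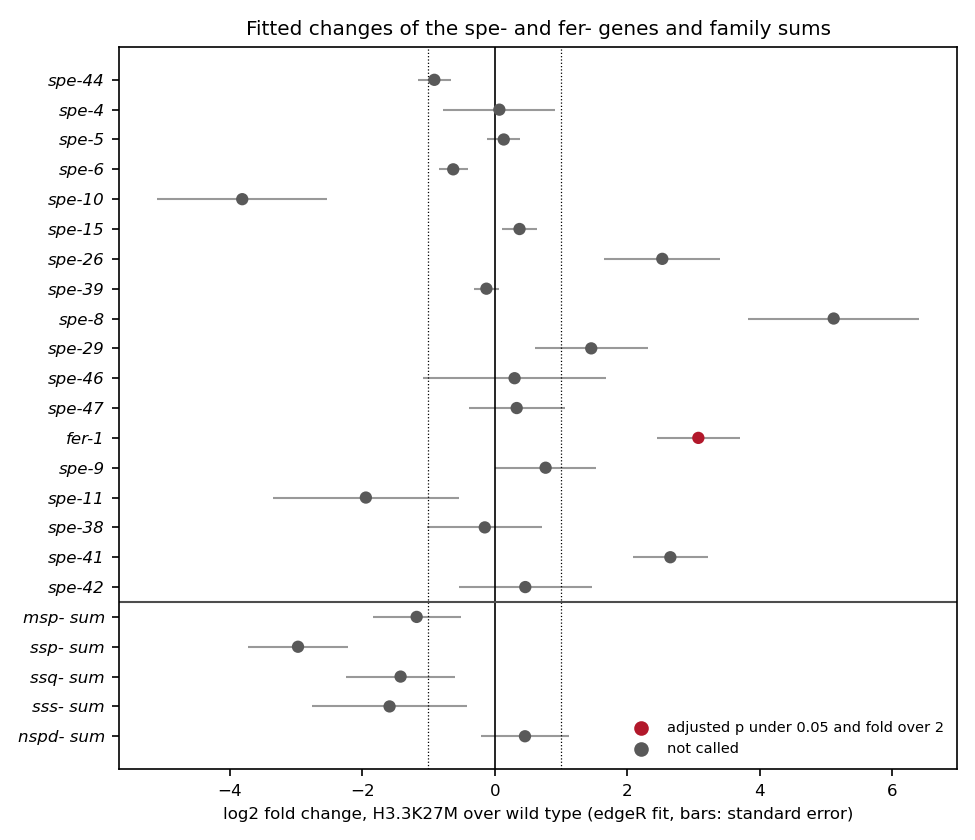
Fitted log2 fold change of H3.3K27M over wild type for the 18 *spe-* and *fer-* genes and for the summed counts of the 5 families, with standard errors as bars and dotted lines at a fold change of 2. *fer-1* (red) was the gene called, while *spe-8* at 5.12, *spe-41* at 2.65, *spe-26* at 2.53 and *spe-10* at -3.81 had adjusted p-values above 0.05.

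The 17 *msp-* genes were near the detection floor in the gonads of both strains. Their reads summed to 125 and 36 counts in the H3.3K27M libraries and 234 and 94 counts in the wild-type libraries, and no gene exceeded 38 counts in any library. The summed level was 2.48 ± 1.91 CPM in the mutant and 5.63 ± 3.33 CPM in wild type (SD, n = 2 each). Mutant replicate 1 lay above wild-type replicate 2, so the strains overlapped, and the log2 fold change of the sum was -1.18 (SE 0.66, adjusted p = 0.318). It was -0.37 without wild-type replicate 1, -0.56 without mutant replicate 2 and -2.26 without mutant replicate 1. Of the single genes, 16 of 17 had a log2 fold change below 0, against 56.0% of all genes. Of these 16, 5 turned sign when 1 library was left out. Of the 17, 0 were called by edgeR in either direction, against 4.43% of all genes higher and 1.46% lower. At an unadjusted p under 0.05, 2 were lower (*msp-3* and *msp-36*), against 12.4% of all genes. DESeq2 called 0, against 7.86% of all genes higher and 3.27% lower. In 9 genes both mutant libraries were below both wild-type libraries, against 32.7% of all genes. The libraries also differed within a strain. Replicate 1 was above replicate 2 in 12 of the 17 genes in the mutant and in 15 of the 17 genes in wild type. Over all 15261 genes tested this held for 6275 in the mutant and 6996 in wild type.

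Among the *msp-* genes with the highest mean level, *msp-50* had 38 and 1 counts in the mutant and 33 and 3 counts in wild type, so that it separated the replicates and not the strains. *msp-49* had 8 and 1 counts in the mutant and 24 and 12 counts in wild type, and *msp-59* had 13 and 8 counts in the mutant and 20 and 12 counts in wild type. In both, each mutant library was below each wild-type library, but the log2 fold changes of -2.12 (SE 1.07, adjusted p = 0.264) and -0.75 (SE 0.83, adjusted p = 0.597) did not pass. *msp-3* had 0 counts in both mutant libraries and 4 and 5 counts in wild type, which makes it at least 1.67-fold lower against a floor of 3 counts per library. *msp-142* also had 0 counts in both mutant libraries, against 6 and 1 counts in wild type, where replicate 2 was itself under the floor. The values of single genes and of the sum are uncertain for the reason given above for near-identical copies. The 17 genes analysed were 17 of the 31 that carry this name in the annotation. In the annotation used here for positions, each of their gene models spans 384 bases with no intron or untranslated region. If the counting used the same models, reads from untranslated ends would not have been assigned to them. The models used for the counting are not given in the sources used here.

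**Figure D3:**
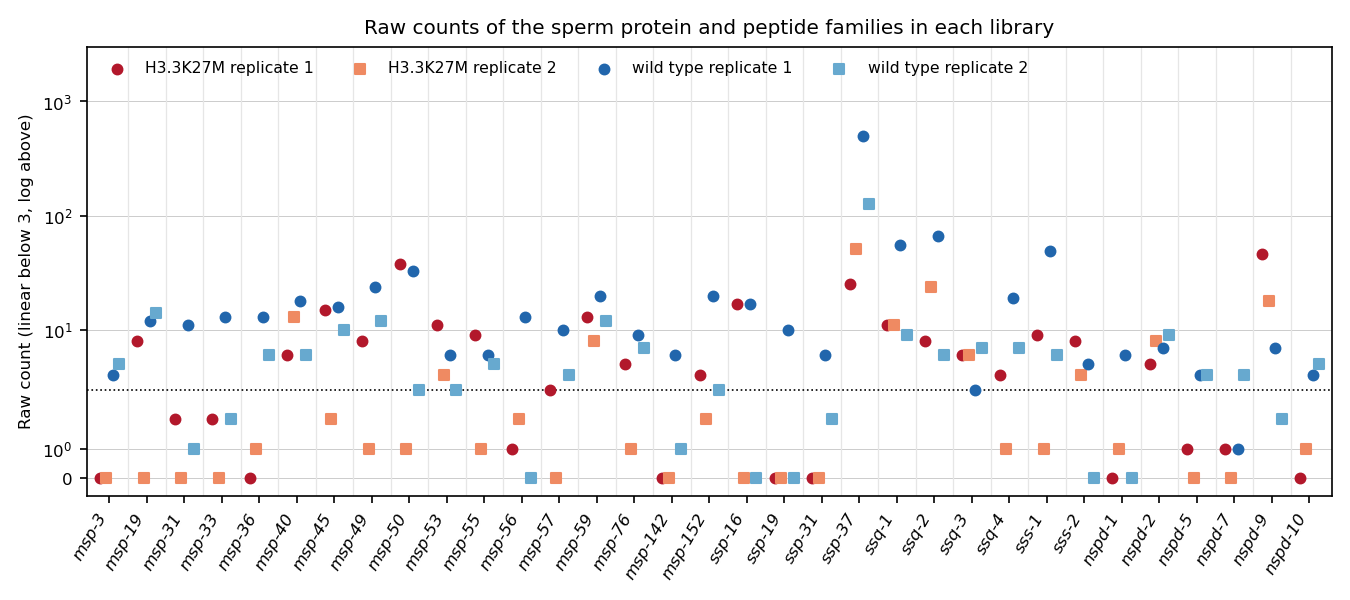
Raw counts of the 33 *msp-*, *ssp-*, *ssq-*, *sss-* and *nspd-* genes in the 4 libraries, on an axis that is linear below 3 counts and logarithmic above, with the detection floor of 3 counts dotted. *ssp-37* reached 498 counts in wild-type replicate 1, and apart from *ssp-37* no gene exceeded 66 counts in any library (mutant in red and orange, wild type in blues).

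The *ssp-* family encodes small proteins related to MSP, and its summed counts came mostly from 1 gene. *ssp-37* lies on the minus strand of chromosome I (12561040 to 12561560) and had 25 and 51 counts in the H3.3K27M libraries and 498 and 127 counts in the wild-type libraries. It was at 1.19 ± 0.594 CPM in the mutant and 10.7 ± 8.89 CPM in wild type (SD, n = 2 each), and thus 9.03-fold lower in the mutant by the means, with no overlap. The wild-type libraries also differed widely from each other. The log2 fold change of -3.18 (SE 0.79, adjusted p = 0.0767) did not pass, and it lay between -3.84 and -1.87 with 1 library left out. DESeq2 called it (adjusted p = 0.000229). The other *ssp-* genes were sparse. *ssp-16* had 17 and 0 counts in the mutant and 17 and 0 counts in wild type, *ssp-19* had 10 counts in wild-type replicate 1 and 0 in the other libraries, and *ssp-31* had 0 and 0 counts in the mutant and 6 and 2 counts in wild type. The 4 *ssp-* genes analysed were 4 of the 12 that carry this name in the annotation. Their sum was 42 and 51 counts in the mutant and 531 and 129 counts in wild type, with a log2 fold change of -2.97 (SE 0.76, adjusted p = 0.0823).

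The *ssq-* and *sss-* genes are families named for sperm-specific expression. The 4 *ssq-* genes summed to 29 and 42 counts in the mutant and 143 and 29 counts in wild type, and the 2 *sss-* genes to 17 and 5 counts in the mutant and 54 and 6 counts in wild type. In both families the excess in wild type came from replicate 1, while replicate 2 was close to the mutant libraries. *ssq-1* had 11 and 11 counts in the mutant and 55 and 9 counts in wild type, *ssq-2* had 8 and 24 counts in the mutant and 66 and 6 counts in wild type, and *sss-1* had 9 and 1 counts in the mutant and 49 and 6 counts in wild type. The log2 fold changes of the sums were -1.42 for *ssq-* (SE 0.83, adjusted p = 0.334) and -1.59 for *sss-* (SE 1.17, adjusted p = 0.430). Without wild-type replicate 1 these turned to 0.16 and 0.73. *ssq-4* had 4 and 1 counts in the mutant and 19 and 7 counts in wild type, with a log2 fold change of -2.47 (SE 1.11, adjusted p = 0.212), and it is overlapped on the opposite strand by T28H11.7. *sss-2*, which the annotation lists as a pseudogene, had 8 and 4 counts in the mutant and 5 and 0 counts in wild type.

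The *nspd-* genes encode short nematode-specific peptides. Of the 6, 0 were called, against 4.43% of all genes called higher and 1.46% lower. *nspd-9*, at 4830092 to 4830307 of chromosome III on the minus strand, with 46 and 18 counts in the mutant and 7 and 2 counts in wild type, gave a log2 fold change of 2.65 (SE 1.02, adjusted p = 0.170). It was the 1 gene of the 33 whose mutant libraries lay above both wild-type libraries. *nspd-10* had 0 and 1 counts in the mutant and 4 and 5 counts in wild type, *nspd-5* had 1 and 0 counts in the mutant and 4 and 4 counts in wild type, and *nspd-2* had 5 and 8 counts in the mutant and 7 and 9 counts in wild type. The 6 *nspd-* genes analysed were 6 of the 10 that carry this name in the annotation. Their sum was 53 and 28 counts in the mutant and 29 and 24 counts in wild type, a log2 fold change of 0.46 (SE 0.66, adjusted p = 0.691).

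**Figure D4:**
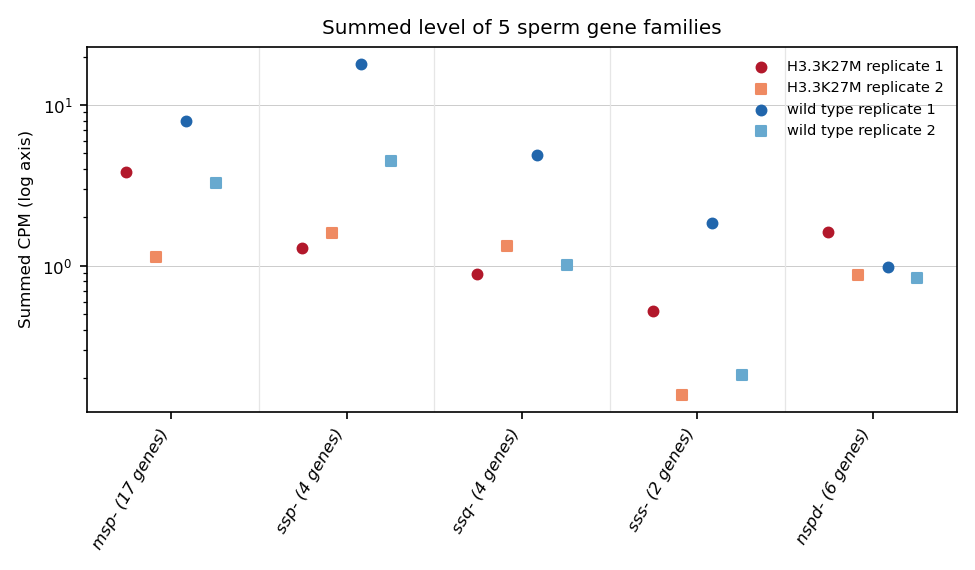
Summed level of each family in each library, in CPM on a logarithmic axis. Wild-type replicate 1 was the highest library for the *msp-*, *ssp-*, *ssq-* and *sss-* sums, and the *ssp-* sum was the 1 family in which the strains did not overlap.

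Wild-type replicate 1 stood apart over the family genes as a whole. The 33 genes together were at 8.15 and 5.10 CPM in the H3.3K27M libraries and at 33.8 and 9.83 CPM in the wild-type libraries. Of these sums, *ssp-37* alone gave 0.766 and 1.61 CPM in the mutant libraries and 16.998 and 4.43 CPM in the wild-type libraries. Without *ssp-37* the strains overlapped in the sum, and wild-type replicate 1 was still the highest library. Wild-type replicate 1 was above wild-type replicate 2 in 26 of the 33 genes, against 6996 of the 15261 genes tested. Among the 6 *nspd-* genes this held for 2. Wild-type replicate 1 also had the highest body wall muscle sum, 433.7 CPM, while the sum of the 12 intestine markers was highest in wild-type replicate 2, at 33.4 and 37.1 CPM in the mutant libraries and 382 and 3457 CPM in the wild-type libraries. The 6 of these 12 genes called lower in the mutant, where 1.46% of all genes were, are the yolk protein genes *vit-1* to *vit-6*. In *ges-1*, *elt-2* and *fat-2* both mutant libraries lay above both wild-type libraries, with log2 fold changes of 2.54, 1.37 and 1.11. Of these 3, 0 were called. In *asp-1*, *act-5* and *ifb-2*, the other markers outside the yolk genes, both mutant libraries lay below both wild-type libraries. Their log2 fold changes were -6.22, -2.29 and -2.0009, and they were not called either. The 11 somatic gonad markers summed to 1169 and 1144 CPM in the mutant and 1057 and 972 CPM in wild type, most of it from the filamin gene *fln-1*, at 1048 and 1005 CPM in the mutant and 790 and 835 CPM in wild type. Of the 11 genes, 0 were called, against 4.43% of all genes called higher and 1.46% lower. A log2 fold change below 0 was found in 8 of the 11, against 56.0% of all genes. Both mutant libraries lay below both wild-type libraries in 4 and above them in 3, against 32.7% and 24.1% of all genes. Wild-type replicate 1 was above wild-type replicate 2 in 10 of the 11, against 6996 of the 15261 genes tested. Among the markers of spermatheca and sheath, *fkh-6* had 48 and 52 counts in the mutant and 164 and 86 counts in wild type (log2 fold change -1.47, adjusted p = 0.149), and *ipp-5* had 8 and 26 counts in the mutant and 80 and 24 counts in wild type (log2 fold change -1.75, adjusted p = 0.280). The spermatheca gene *sth-1* had 3 and 6 counts in the mutant and 51 and 4 counts in wild type, so that wild-type replicate 1 stood out as it did for the *ssq-* and *sss-* sums. The troponin T gene *tnt-3* had 4 and 3 counts in the mutant and 30 and 18 counts in wild type (log2 fold change -2.88, adjusted p = 0.114). Other genes of this list went the other way or overlapped. *lim-7* had 355 and 483 counts in the mutant and 298 and 171 counts in wild type (log2 fold change 0.69), and *myo-3* was at 0.66. *ceh-18* and *spv-1* overlapped between the strains, with log2 fold changes of -0.28 and -0.29.

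Of the 4 male markers tested, 0 were called, against 4.43% of all genes called higher and 1.46% lower. They summed to 7.96 and 14.5 CPM in the mutant and 4.40 and 3.97 CPM in wild type. Most of this sum was *mab-3*, at 5.79 and 12.4 CPM in the mutant and 2.97 and 1.22 CPM in wild type (log2 fold change 2.11, adjusted p = 0.0957), while *lov-1* was at 0.214 and 0.850 CPM in the mutant and 0.717 and 1.92 CPM in wild type. The part of any of these markers in the levels of the sperm genes was not tested.

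Genes linked to spermatogenesis or sperm function that the name rule does not take were read from a list of 25. Of these, 19 were tested apart from *trp-3*, which is *spe-41*. Whether their RNA here came from sperm-forming cells was not tested. None of the 19 was called by the edgeR fit, against 4.43% of all genes called higher and 1.46% lower. At an unadjusted p under 0.05, 6 were higher and 0 lower, against 12.3% and 12.4% of all genes. The median log2 fold change was 1.15, against -0.11 over all genes. In 11 of the 19 both mutant libraries lay above both wild-type libraries, against 24.1% of all genes. In 2 they lay below, against 32.7%. These contrasts were not tested. *fog-3*, which commits germ cells to the sperm fate, had 98 and 265 counts in the mutant and 57 and 17 counts in wild type (log2 fold change 2.15, SE 0.73, adjusted p = 0.149). *fog-1*, its partner in that decision, had 1349 and 1391 counts in the mutant and 1565 and 1383 counts in wild type (log2 fold change -0.26, SE 0.18, adjusted p = 0.402). *gsp-3*, a sperm protein phosphatase gene, had 81 and 227 counts in the mutant and 31 and 12 counts in wild type (log2 fold change 2.69, SE 0.78, adjusted p = 0.115), and its close paralog *gsp-4*, with which it may share reads, had 21 and 7 counts in the mutant and 5 and 0 counts in wild type. *smz-1*, a PDZ-domain gene of sperm meiosis, had 505 and 397 counts in the mutant and 201 and 173 counts in wild type (log2 fold change 1.12, SE 0.26, adjusted p = 0.0661). The sperm chromatin gene *spch-1*, listed as C04G2.8, had 53 and 68 counts in the mutant and 60 and 32 counts in wild type, and *snf-10*, a transporter gene of sperm activation, had 14 and 16 counts in the mutant and 21 and 23 counts in wild type. Of these, DESeq2 called *gsp-3*, *smz-1* and *fog-3*.

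A further 6 genes now carry *spe-* names in the annotation but are listed under older names, and they were looked up after the other values had been seen. Of these, T22B11.1, now *spe-51*, was called higher, with 262 and 304 counts in the mutant and 68 and 30 counts in wild type. Its level was 8.80 ± 1.10 CPM in the mutant and 1.68 ± 0.902 CPM in wild type (SD, n = 2 each), a log2 fold change of 2.38 (SE 0.43, adjusted p = 0.0313). F55H12.5, now *spe-54*, had 27 and 22 counts in the mutant and 4 and 0 counts in wild type (log2 fold change 3.39, SE 1.22, adjusted p = 0.145). Y51F10.10, now *spe-48*, was the most abundant, with 5593 and 5581 counts in the mutant and 7576 and 5318 counts in wild type, and it was not called.

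The genes through which oocytes and sheath cells respond to MSP were far above the floor. In the list of 10, the edgeR fit called 0 genes, against 4.43% of all genes called higher and 1.46% lower. At an unadjusted p under 0.05 there were 0, against 12.3% of all genes higher and 12.4% lower. The median log2 fold change was -0.12, against -0.11 over all genes. *vab-1*, an Eph receptor gene that binds MSP, had 8461 and 7712 counts in the mutant and 7352 and 7034 counts in wild type (log2 fold change 0.02, SE 0.17). *kin-2*, a regulatory subunit gene of protein kinase A on chromosome X, had 50 and 102 counts in the mutant and 137 and 152 counts in wild type, with the largest change of the list (log2 fold change -1.08, SE 0.45, adjusted p = 0.208).

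None of the 51 sperm genes lies on chromosome X, where 13.1% of all tested genes with a position lie. Chromosome IV held 18 of them and chromosome I held 16, or 35.3% and 31.4%, against 16.6% and 16.8% of the tested genes. The *msp-* genes were divided between chromosome II, with 9 genes from 4785898 to 5798310, and chromosome IV, with 8 genes from 5055631 to 10095816 (WBcel235). The 4 *ssp-* genes analysed, of 12 with this name in the annotation, lie on chromosome I. All 4 *ssq-* genes lie on chromosome IV. The shares describe the 51 genes in the count table, not every annotated gene with these names, and were not tested.

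**Figure D5:**
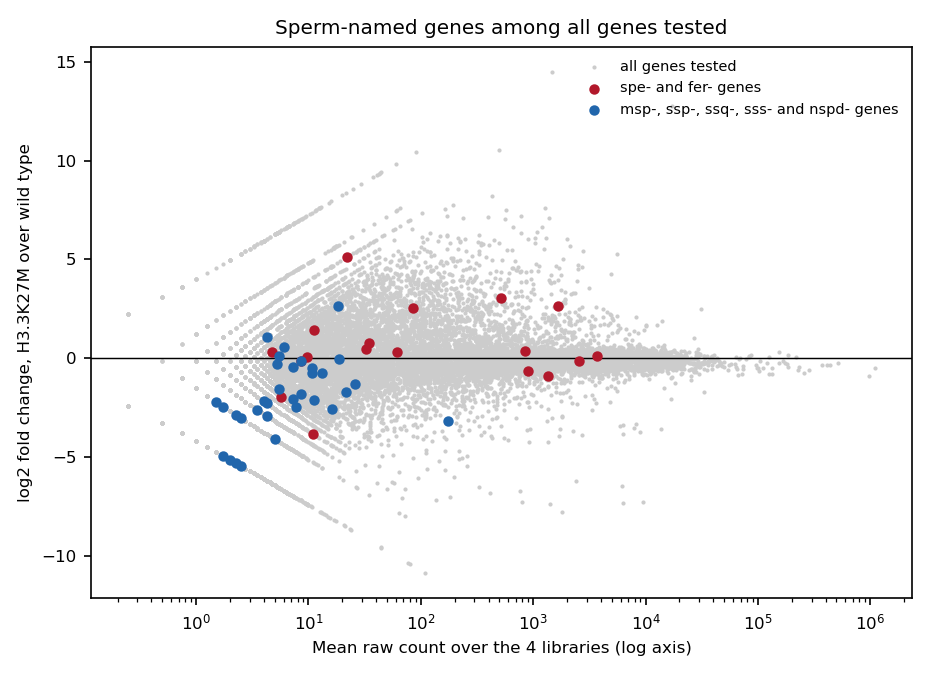
Log2 fold change of H3.3K27M over wild type against the mean raw count of the 4 libraries (logarithmic axis), for all 15261 genes tested (grey), the *spe-* and *fer-* genes (red) and the 33 family genes (blue). Most family genes sit at mean counts near the detection floor and below 0, where grey points spread widely as well.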

How the data were processed

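The authors isolated RNA from dissected gonads of 2 strains, in biological replicates (2 libraries each), and used a stranded mRNA kit. They mapped 50-base reads to WBcel235 with TopHat 2.0.13. The submitters' processing notes also name HTSeq 0.6.1 and edgeR 3.10.5, and the counting settings are not given in the sources used here. The authors deposited raw counts per gene and library-scaled counts, a normalized signal that was not used. Their columns of fold changes, mean levels and p-values were also not used.

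Raw counts of all genes with a count in some library were normalized by TMM and tested with edgeR 4.0.16 (R 4.3.3; strain as sole term), after a check on simulated data. The standard error is |log2 fold change| over the root of F. A second fit put family sums in place of their members. Positions and newer names are from Ensembl release 115. Counting intervals are exact binomial (95%).

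Named were all *spe-* and *fer-* genes, any called gene and the 3 most abundant of each other family, and a set of other sperm genes. Single marker genes and the renamed *spe-* genes were named after their values were seen. So were *msp-3*, *msp-36*, *msp-142*, *ssp-31*, *sss-2*, *nspd-5*, *vab-1*, *kin-2*, *try-5*, *swm-1* and *zipt-7.1*. Members and lists were chosen with earlier results of these data known. From the list of other sperm genes, *htas-1*, *peel-1*, *mfp-1*, *mfp-2* and *mpak-1* were not analysed here. Alternatives were RLE scaling, DESeq2 1.42.0, filterByExpr, the legacy fit, a replicate block, the adjusted p alone and leaving out each library.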

Additional observations from a re-analysis of the deposited data

How the results depend on the processing

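With 2 libraries per strain, the calls were sensitive to the test. The sperm genes called higher numbered 0 with RLE scaling, 4 with DESeq2 (*fer-1*, *spe-41*, *spe-8* and *spe-26*), 2 with filterByExpr, 2 with the legacy fit and 1 with the adjusted p alone. With DESeq2 1 was called lower (*ssp-37*). Over all genes DESeq2 called 1200 higher and 499 lower. The replicate block gave 0 sperm genes higher, and 372 genes higher and 91 lower over all. Same-numbered libraries deviated slightly in opposite directions (r = -0.12 across 9237 genes), and the crossed replicate block, added after seeing the data, gave 2 sperm genes higher and 1 lower. When single libraries were left out, the sperm genes called numbered 0 to 0 in either direction and all genes 0 to 101 higher and 0 to 17 lower, with fewer libraries in the fit. The median log2 fold change of the 51 genes, -0.76, was -0.077 over the 26 genes that pass filterByExpr, and ranged from -1.55 to -0.26 with 1 library left out. The *ssp-* sum was called with DESeq2, at -2.94 (adjusted p = 0.000291).

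*fer-1* was not called with RLE scaling (adjusted p = 0.0545), the replicate block (2.86, adjusted p = 0.0950) or 3 libraries. The direction changed with 1 library left out in 18 of the 51 genes, 11 of them among the 33 family genes. For the sums and named genes where it did, the log2 fold changes had these ranges. The sums ran from -2.14 to 0.16 for *ssq-*, from -2.63 to 0.73 for *sss-* and from -0.00019 to 0.83 for *nspd-*. The genes ran from -0.16 to 0.55 for *spe-5*, from -0.38 to 1.86 for *spe-47*, from -0.20 to 0.45 for *spe-4*, from -0.22 to 0.0094 for *spe-39*, from -2.03 to 2.20 for *spe-46*, from -1.51 to 1.44 for *spe-42*, from -0.50 to 0.36 for *spe-38*, from -4.08 to 2.52 for *msp-50*, from -6.14 to 6.06 for *ssp-16*, from -2.32 to 1.27 for *ssq-2*, from -2.44 to 0.15 for *ssq-1* and, for C04G2.8, from -0.12 to 0.79. None of these genes or sums was called by edgeR with all 4 libraries. The cause of these changes was not tested. Many family genes were near the floor of 3 counts, where a difference may not be detectable at this depth.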
